A study of Jaculus jaculus with 29 samples.

Results

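The genes described here code for NFAT5, a transcription factor activated by high osmolality, and for proteins that load cells with organic osmolytes or protect them under osmotic stress. They were read from 29 RNA-seq libraries of the supraoptic nucleus of the lesser Egyptian jerboa (Jaculus jaculus), a desert rodent. The list had 7 symbols: Nfat5, Slc5a3, Slc6a6, Slc6a12, Akr1b1, Slc38a2 and Hspa4l. Members were the listed symbols found among the gene names of the authors' deposited Dehydrated table, joined by gene identifier to the count table. That rule found 4 of the 29170 genes of the count table, Slc6a6, Slc6a12, Slc38a2 and Hspa4l. The other 3 symbols were not gene names in that table, and their loci were taken by other evidence: Nfat5 by its deposited description and its overlap with the RefSeq gene of that name, and Akr1b1 as Akr1b3, the mouse name of the same aldose reductase. No gene named Slc5a3 was in the count table. An unnamed single-exon gene, ENSJJAG00000033586, has 71.85% of its span inside RefSeq Slc5a3 and is called here the Slc5a3-locus gene. It covers 18.06% of the RefSeq Slc5a3 span. It also overlaps the RefSeq gene Mrps6 and another gene of the count table, so its counts cannot be given to Slc5a3 with certainty.

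The Dehydrated group held 10 libraries from jerboas kept without water for 11 days, 6 of female and 4 of male label. The Rehydrated group held 9, from jerboas without water for 7 days and then given free water for 3 days, 4 female and 5 male. The Control group held 10, from jerboas with free water throughout, 5 of each sex label. Age and strain are not given in the labels. All jerboas were housed singly with dry food and assigned to groups at random, per the labels, and polyadenylated RNA came from bilateral punches of frozen brain. The labels do not say outright that each library is 1 animal, so p-values measure the spread between these libraries. A punch holds neurons, glia, vessels and some membrane around the nucleus, and in such bulk samples fewer cells of a type and less RNA per cell cannot be told apart.

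When the fluid outside a cell becomes concentrated, water leaves the cell and its salts concentrate. Cells respond over hours to days by taking up or making small uncharged solutes that do not disturb proteins. NFAT5, also called TonEBP, moves to the nucleus under hypertonicity and drives transcription of the transporters for myo-inositol, taurine and betaine, of aldose reductase, which makes sorbitol, and of heat shock proteins; much of this is known from the mammalian kidney medulla. In the supraoptic nucleus the magnocellular neurons sense osmolality and release vasopressin and oxytocin, and in rats the glia around them hold taurine, which is released when osmolality falls.

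Total counts were 14084542 to 18856620 per Dehydrated library, 14235024 to 18516535 per Rehydrated library and 10797577 to 17834438 per Control library. The labelled tissue was checked on its defining hormones, and Avp was at 201 CPM or more and Oxt at 159 CPM or more in every library. CPM is the number of counts of a gene per 1 M counts of the scaled library total. Control M01 stood apart: 53.2% of tested genes lay outside the range of the other 28 libraries in it, against 2.05% to 12.0% for any other library. It was outside that range for 5 of the 7 genes described here, so log2 fold changes against Control are given below with and without it.

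Control M01 was lowest of all 29 libraries for Nfat5, the Slc5a3-locus gene, Slc6a6 and Slc38a2 and highest for Akr1b3. Nfat5 had 3.14 CPM in Control M01, against a median of 42.0 CPM in the other Control libraries and a range of 28.6 to 51.2 CPM over the other 28 libraries. On the log2(CPM + 0.5) scale that is a difference of -3.55, and 0.216% of tested genes were lower there by as much. The differences were -1.97 for Slc6a6, -1.45 for the Slc5a3-locus gene, -1.34 for Slc38a2 and -0.21 for Hspa4l. They were 0.59 for Akr1b3 and 1.11 for Slc6a12. Summed microglia markers were also at 591 CPM in Control M01, against 161 to 232 CPM in the other Control libraries, and summed leptomeningeal fibroblast markers at 911 CPM against 387 to 842 CPM. Rehydrated libraries reached 1530 CPM for the fibroblast markers. Ependymal and choroid plexus markers were also above the other Control libraries, at 47 against 18.6 to 38.2 CPM. Mural markers were below them, at 196 against 234 to 320 CPM. So were oligodendrocyte precursor markers, at 588 against 603 to 1150 CPM. The part of these cells in the values of Control M01 was not tested.

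None of the 7 genes, and so none of the 4 found by the rule, passed the test in any comparison of the groups. In the edgeR quasi-likelihood test with Benjamini-Hochberg adjustment over 17558 genes, 22 genes passed in Dehydrated against Control, which is 0.125% of those tested, so a count of 0 among 7 is near the background. Without Control M01 17 of 17545 genes passed (0.0969%), and again none of the 7. For Rehydrated against Control 0 genes passed (0% of those tested), with 1313 at an unadjusted p under 0.05, and DESeq2 called 18. In Rehydrated against Dehydrated 4 passed (0.0228%). At an unadjusted p under 0.05 edgeR had 0 of the 7 in each of these 3 comparisons. DESeq2 with all libraries called 0 of the 7 and had 1 at an unadjusted p under 0.05, Slc38a2 in Dehydrated against Control. Of 17540 genes, 0.262% passed for Dehydrated and 0.0228% for Rehydrated against Control in the authors' deposited tables, and none of the 7. The median log2 fold change of the 7 was 0.14 in Dehydrated against Control and 0.05 without Control M01, beside -0.003 and 0.002 for all tested genes.

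**Figure D1:**
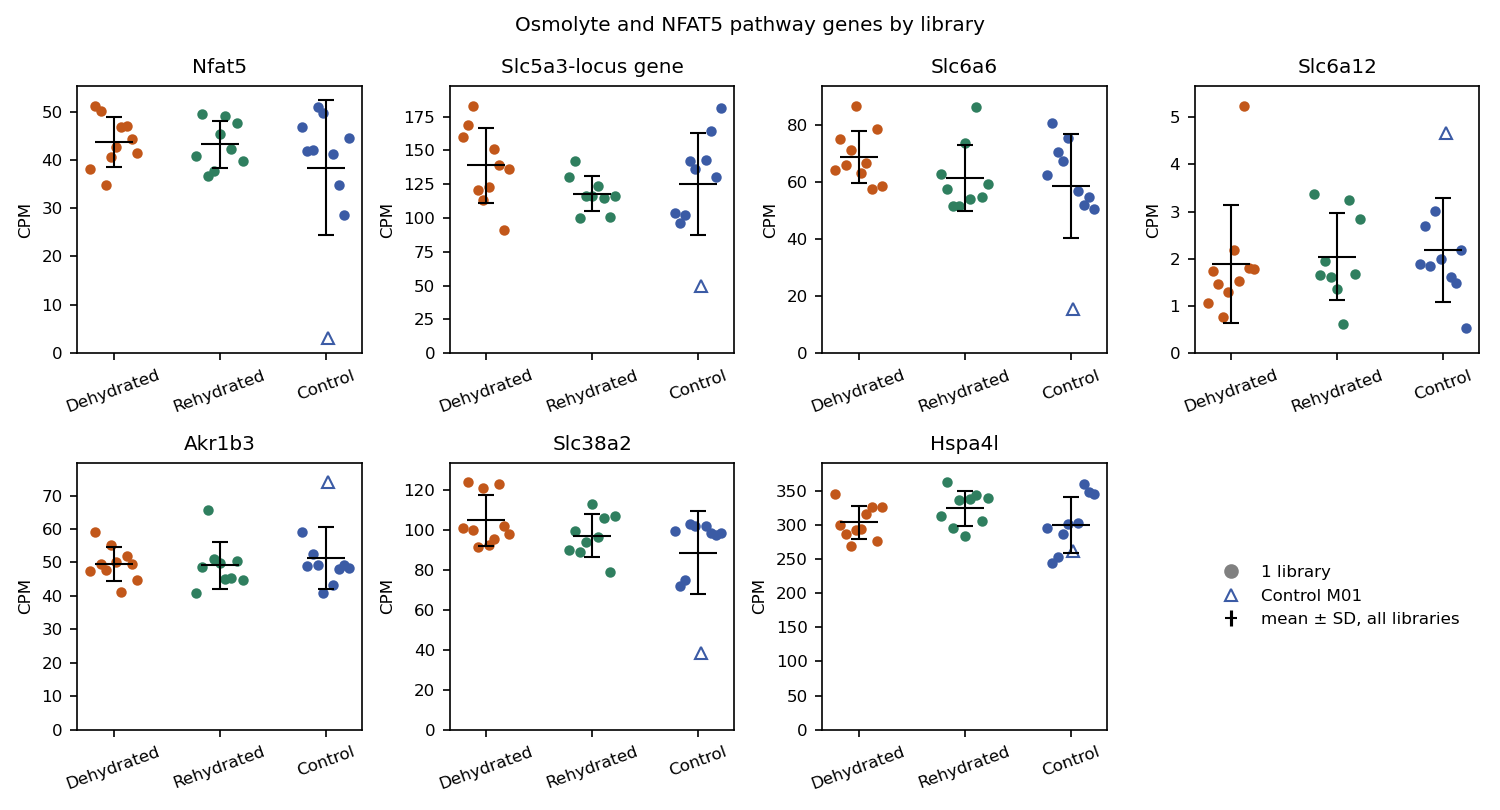
CPM of each gene in every library, by group, with the mean and SD over all libraries of the group as black bars and Control M01 as an open triangle. The groups overlap for all 7 genes; Control M01 lies at 3.14 CPM for Nfat5, 15.6 CPM for Slc6a6 and 38.5 CPM for Slc38a2, below every other library.

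Nfat5, the transcription factor itself, lies on chromosome 1 (mJacJac1 assembly, 245085705 to 245219470, minus strand). It had a lowest value of 34.7, a median of 43.5 and a highest of 51.2 CPM in Dehydrated libraries. It had 36.6, 42.2 and 49.4 CPM in Rehydrated libraries, against 3.14, 41.9 and 50.9 CPM in Control libraries. The 3 groups lay over each other, and 6 of 10 Dehydrated and 5 of 9 Rehydrated libraries were above the Control median. The log2 fold change was 0.18 (SE 0.22, adjusted p = 0.856 by edgeR) in Dehydrated against Control and 0.05 (SE 0.09, adjusted p = 0.99) without Control M01. The interval without Control M01 ran from -0.13 to 0.23, so a rise of more than 1.18-fold lay outside it. Over all 29 libraries the interval was wider, from -0.26 to 0.62, or 0.836-fold to 1.54-fold. Rehydrated against Control gave 0.18 (SE 0.22, adjusted p = 0.861), and 0.03 (SE 0.09) without Control M01. Rehydrated libraries averaged 43.2 ± 4.85 CPM (SD, n = 9) and Dehydrated libraries 43.7 ± 5.25 CPM (SD, n = 10), a log2 difference of -0.006 (SE 0.22).

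The Slc5a3-locus gene spans 158474124 to 158483853 on the plus strand of chromosome 5. Slc5a3 codes for the sodium-coupled myo-inositol transporter, by which brain cells take up one of their main organic osmolytes. The locus gene ran from 91.3 through a median of 137 to 183 CPM in Dehydrated libraries. It ran from 100 through 116 to 142 CPM in Rehydrated libraries, against 49.6 through 133 to 181 CPM in Control libraries. Without Control M01 the Control libraries ran from 96.0 to 181 CPM, nearly the span of the Dehydrated libraries, and 1 of 9 Rehydrated libraries was above the median of all 10 Control libraries. Log2 fold changes were 0.14 (SE 0.15, adjusted p = 0.844 by edgeR) in Dehydrated and -0.08 (SE 0.15, adjusted p = 0.909) in Rehydrated against Control. Without Control M01 they were 0.06 (SE 0.12) and -0.17 (SE 0.12, adjusted p = 0.757). Rehydrated against Dehydrated gave -0.22 (SE 0.15, unadjusted p = 0.155 by edgeR over all genes) and, without Control M01, -0.23 (SE 0.12, unadjusted p = 0.0605, adjusted p = 0.785). Again 1 of 9 Rehydrated libraries was above the Dehydrated median.

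Slc6a6, the taurine transporter, lies on chromosome 6 (40299338 to 40385018, plus strand). Its lowest, median and highest values were 57.5, 66.2 and 86.6 CPM in Dehydrated libraries. They were 51.4, 57.3 and 86.1 CPM in Rehydrated libraries, against 15.6, 59.6 and 80.6 CPM in Control libraries. Of the 10 Dehydrated libraries 8 were above the Control median, and of the 9 Rehydrated libraries 3 were. The log2 fold change in Dehydrated against Control was 0.22 (SE 0.16, adjusted p = 0.804 by edgeR), with an interval of -0.10 to 0.55. It was 0.12 (SE 0.10, adjusted p = 0.963) without Control M01, with an interval of -0.09 to 0.32. Rehydrated against Control gave 0.09 (SE 0.17, adjusted p = 0.913), and the direction turned without Control M01, to -0.04 (SE 0.10). Rehydrated against Dehydrated gave -0.14 (SE 0.17), with 2 of 9 Rehydrated libraries above the Dehydrated median.

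Slc6a12, the betaine and GABA transporter, lies on chromosome 18 (36495054 to 36516484, plus strand) and was the least abundant of the 7, with 9 to 80 counts per library. It had 0.758, 1.63 and 5.24 CPM as lowest, median and highest value in Dehydrated libraries. It had 0.613, 1.68 and 3.37 CPM in Rehydrated libraries, against 0.536, 1.93 and 4.66 CPM in Control libraries. The highest Dehydrated library, M06, stood at 5.24 CPM and the next at 2.19 CPM, and the highest Control library was Control M01. Above the Control median were 2 of 10 Dehydrated and 4 of 9 Rehydrated libraries, with and without Control M01. The log2 fold change in Dehydrated against Control was -0.21 (SE 0.32, adjusted p = 0.884 by edgeR) with an interval of -0.87 to 0.45. It was -0.02 (SE 0.32) without Control M01 and -0.52 without Dehydrated M06. Rehydrated against Control gave -0.10 (SE 0.33, adjusted p = 0.952) and, without Control M01, 0.09 (SE 0.33). In Dehydrated against Control the fitted interval was 0.546-fold to 1.36-fold, and 0.629-fold to 1.55-fold without Control M01. At this depth the fits do not exclude changes within these ranges.

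Akr1b3 (95754963 to 95770460 on chromosome 10, minus strand) is annotated as a member of aldo-keto reductase family 1 B; aldose reductase reduces glucose to sorbitol. It had 41.1, 49.4 and 59.1 CPM as lowest, median and highest value in Dehydrated libraries. It had 40.8, 48.8 and 65.6 CPM in Rehydrated libraries, against 40.8, 49 and 74 CPM in Control libraries. The medians lay within 1 CPM of each other. Log2 fold changes were -0.06 (SE 0.09, adjusted p = 0.891 by edgeR) in Dehydrated and -0.06 (SE 0.09, adjusted p = 0.882) in Rehydrated against Control. Both turned to 0.02 (SE 0.07 and 0.08) without Control M01. The interval for Dehydrated was then -0.13 to 0.17, so a change of more than 1.12-fold upward lay outside it. Reads of near-identical aldo-keto reductase copies may be shared between genes, which the counting does not resolve.

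Slc38a2 (88437777 to 88449816 on chromosome 6, minus strand) codes for SNAT2, a carrier of small neutral amino acids that cultured cells raise under hypertonic stress and amino acid shortage. It was the gene nearest to the threshold in Dehydrated against Control. Its lowest, median and highest values were 91.4, 101 and 124 CPM in Dehydrated libraries. They were 79.1, 96.4 and 113 CPM in Rehydrated libraries, against 38.5, 98.6 and 103 CPM in Control libraries. The medians were close, and 6 of 10 Dehydrated and 4 of 9 Rehydrated libraries were above the Control median. The groups parted at both ends. At the upper end 3 Dehydrated libraries were above 120 CPM, where no Rehydrated or Control library was. Below the lowest Dehydrated library lay Control M01, F02 and F03, at 38.5, 72.1 and 75 CPM. Rehydrated M06, F05 and F03 lay below it too, at 79.1, 88.8 and 90 CPM. The log2 fold change in Dehydrated against Control was 0.24 (SE 0.12, unadjusted p = 0.0506, adjusted p = 0.774 by edgeR over all genes), with an interval of -0.0007 to 0.48. It was 0.16 (SE 0.08, unadjusted p = 0.053, adjusted p = 0.861) without Control M01. Dehydrated libraries averaged 105 ± 12.8 CPM (SD, n = 10) and Control libraries 88.7 ± 20.9 CPM (SD, n = 10), or 94.3 ± 11.9 CPM (SD, n = 9) without Control M01. Rehydrated against Control gave 0.14 (SE 0.12, adjusted p = 0.80) and 0.04 (SE 0.08) without Control M01, and Rehydrated against Dehydrated gave -0.10 (SE 0.12).

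Hspa4l, also known as OSP94, is a chaperone of the HSP110 family first described as induced by osmotic stress in mouse kidney cells. It lies on chromosome 12 (74594061 to 74670157, plus strand), and 2 small unnamed genes overlap it, so part of its counts may be theirs. It was the most abundant of the 7 and the least variable, with 269, 298 and 346 CPM as lowest, median and highest value in Dehydrated libraries. It had 284, 337 and 363 CPM in Rehydrated libraries, against 244, 299 and 360 CPM in Control libraries. Of the 9 Rehydrated libraries 7 were above the Control median, and 5 of 10 Dehydrated libraries were. Log2 fold changes were 0.02 (SE 0.07, adjusted p = 0.956 by edgeR) in Dehydrated and 0.11 (SE 0.07, adjusted p = 0.728) in Rehydrated against Control. Without Control M01 they were 0.0003 (SE 0.07) and 0.09 (SE 0.07). Both intervals without Control M01, -0.13 to 0.13 and -0.05 to 0.23, end below a rise of 1.2-fold.

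**Figure D2:**
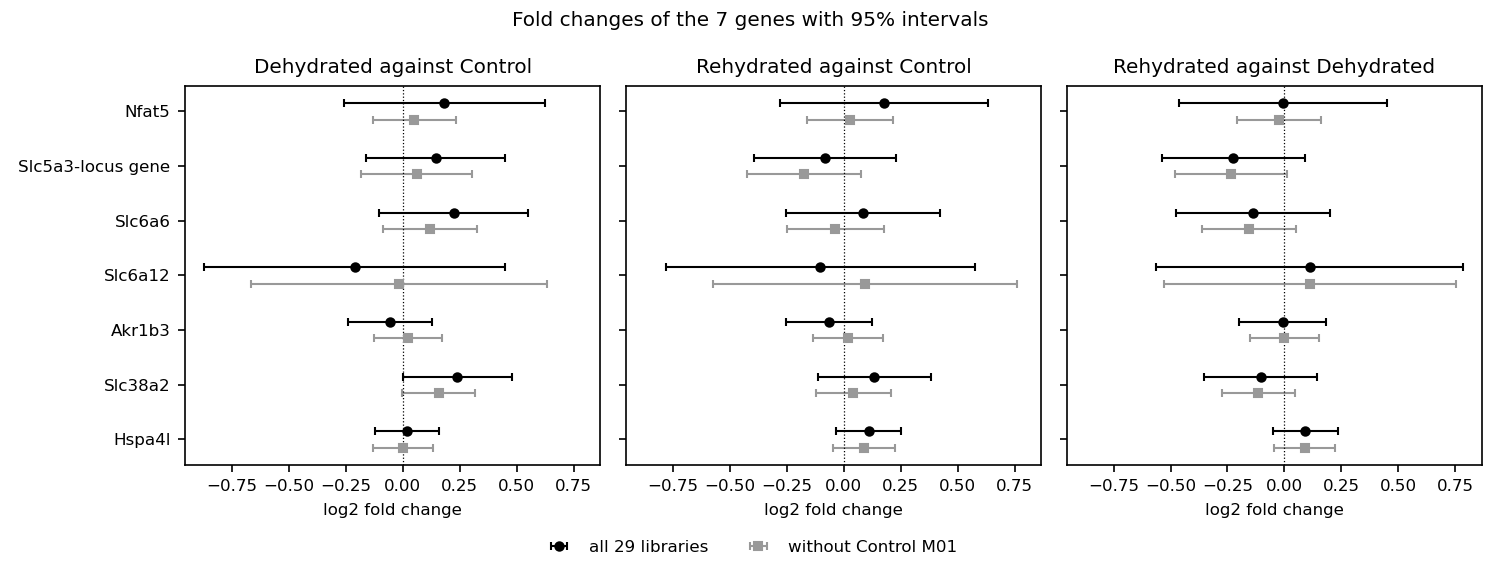
Log2 fold changes of the 7 genes in 3 comparisons, with 95% intervals, over all 29 libraries (black circles) and without Control M01 (grey squares); the dotted line marks no change. Every interval holds 0, and those of Nfat5 narrow most without Control M01, where the SE is 0.09 in place of 0.22.

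In the authors' deposited tables the log2 fold changes of these genes lay close to the fit without Control M01. Each of those tables has columns for 28 libraries and none for Control M01, so this closeness is no independent check. For Slc38a2 the authors' deposited table gave 0.16 (SE 0.08, adjusted p = 0.80) in Dehydrated against Control and 0.04 (SE 0.08, adjusted p = 0.937) in Rehydrated against Control. For Nfat5 the authors' deposited table gave 0.05 (SE 0.09, adjusted p = 0.994) and 0.03 (SE 0.09, adjusted p = 0.97).

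The 2 sexes were set against each other in a model of group by sex, where the difference is the male response minus the female response. Sex was taken from the label, which disagrees with the letter in the name for Control F03, Control M05 and Dehydrated M02. Genes passing the test numbered 0 (0% of those tested) for Dehydrated and 0 (0%) for Rehydrated against Control by edgeR, with 1063 and 1085 at an unadjusted p under 0.05. DESeq2 called 2 genes for Dehydrated and 0 for Rehydrated, and none of the 7 in the first; for 6 of the 7 it gave no adjusted p in the second. Of the 7 genes, Slc6a6 in Rehydrated had the one unadjusted p under 0.05 by edgeR with all libraries. Among libraries of female label Slc6a6 averaged 55.7 ± 5.39 CPM in Rehydrated (SD, n = 4) and 68.0 ± 10.3 CPM in Control (SD, n = 5). Among those of male label it averaged 65.5 ± 13.9 CPM in Rehydrated (SD, n = 5) and 49 ± 20.3 CPM in Control (SD, n = 5), or 57.4 ± 9.04 CPM (SD, n = 4) without Control M01. The log2 difference between the responses was 0.70 (SE 0.31, unadjusted p = 0.0338, adjusted p = 0.799 by edgeR), and 0.48 (SE 0.19, adjusted p = 0.849) without Control M01.

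Slc6a12 showed the other wide difference between the sexes, in Dehydrated. Libraries of female label averaged 1.42 ± 0.506 CPM in Dehydrated (SD, n = 6) and 2.35 ± 0.485 CPM in Control (SD, n = 5). Those of male label averaged 2.59 ± 1.77 CPM in Dehydrated (SD, n = 4) and 2.03 ± 1.55 CPM in Control (SD, n = 5), or 1.37 ± 0.577 CPM (SD, n = 4) without Control M01. The log2 difference between the responses was 1.09 (SE 0.63, adjusted p = 0.834 by edgeR), and 1.63 (SE 0.59, unadjusted p = 0.00985, adjusted p = 0.946) without Control M01. Neither difference passed, and the male Dehydrated mean of Slc6a12 contains the M06 library at 5.24 CPM.

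**Figure D3:**
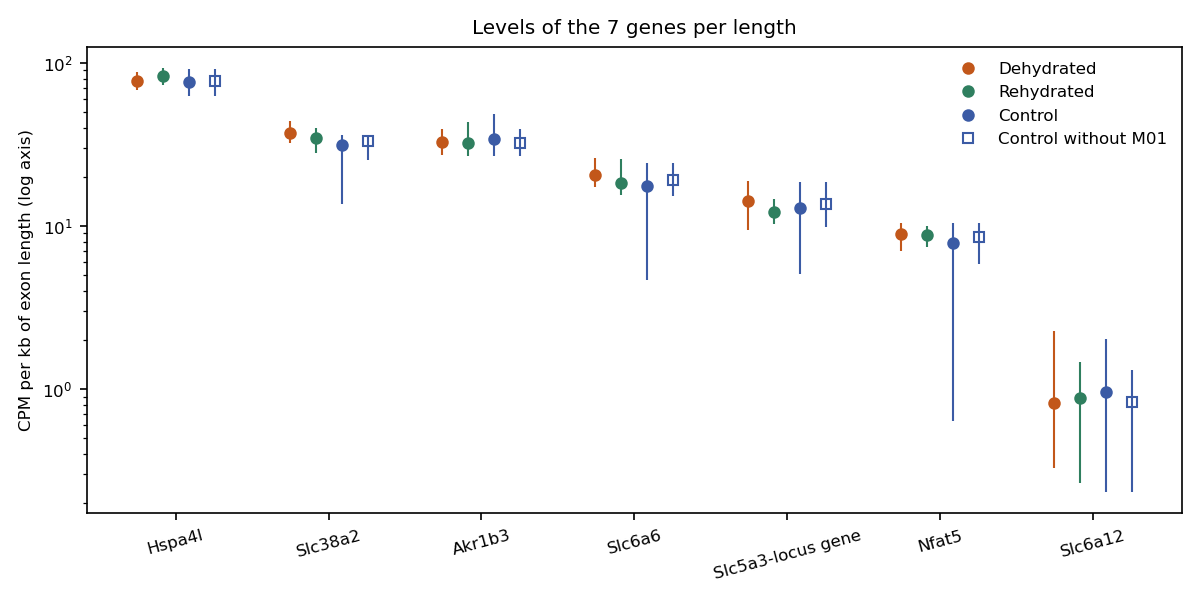
Mean CPM per kb of annotated exon length of the 7 genes in each group (log axis), with lines from the lowest to the highest library; open squares leave out Control M01. Hspa4l is highest and Slc6a12 lowest in every group, and the low end of the Control lines for Nfat5 and Slc6a6 is Control M01.

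Divided by exon length, which allows levels of different genes to be set side by side, the 7 genes covered about 2 orders of size in CPM per kb. Hspa4l came first, at 77.6 ± 6.29 CPM per kb in Dehydrated (SD, n = 10), 82.9 ± 6.60 in Rehydrated (SD, n = 9) and 76.7 ± 10.4 in Control libraries (SD, n = 10). Its lowest library was above the highest library of every other gene within each group. Slc38a2 and Akr1b3 followed with overlapping ranges, at 37.1 ± 4.53 and 32.8 ± 3.36 CPM per kb in Dehydrated libraries. The difference between these 2 genes was not tested. In Control libraries Akr1b3 stood above Slc38a2, at 33.9 ± 6.18 and 31.3 ± 7.38 CPM per kb, and without Control M01 below it, at 32.3 ± 3.43 and 33.3 ± 4.21.

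Slc6a6 came next, at 20.6 ± 2.77 CPM per kb in Dehydrated, 18.4 ± 3.48 in Rehydrated and 17.6 ± 5.46 in Control libraries. The Slc5a3-locus gene followed at 14.2 ± 2.86, 12.1 ± 1.34 and 12.8 ± 3.89 CPM per kb in the same order. Its range overlapped with that of Slc6a6 in Dehydrated and Control libraries and not in Rehydrated libraries. Nfat5 came after it at 8.90 ± 1.07, 8.79 ± 0.988 and 7.81 ± 2.86 CPM per kb. Slc6a12 was last, at 0.82 ± 0.542 CPM per kb in Dehydrated, 0.886 ± 0.401 in Rehydrated and 0.953 ± 0.478 in Control libraries. The order was otherwise the same in the 3 groups. The annotated exons of Nfat5 sum to 4.91 kb and the locus gene has 9.73 kb, and a missing or extra untranslated end would move a level per length.

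Variation between libraries beyond counting noise was read from the model as the biological coefficient of variation. It was 34.2% for Nfat5, against 16.8% for the trend of genes of like abundance, and 13.5% against 13.3% without Control M01. The Slc5a3-locus gene kept a wider spread than its trend without that library, at 18% against 11.2%. Slc6a6 was at 15.1% against 11.9% and Slc6a12 at 44.5% against 38.9%. Akr1b3, at 11.0% against 12.8%, and Hspa4l, at 10.6% against 11.9%, were below their trends, and Slc38a2 was at 12.0% against 11.2%.

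The rest of the osmolyte and NFAT5 pathway was read from 4 lists. Of 94 listed genes 74 were tested, and none passed in any of the 3 comparisons by edgeR. At an unadjusted p under 0.05 there were 2 in Dehydrated against Control, 4 in Rehydrated against Control and 3 in Rehydrated against Dehydrated. Over all 17558 tested genes 1118, 1313 and 681 were at that level by edgeR. Without Control M01 1007, 1399 and 1142 of all 17545 tested genes were. Among the listed genes the counts without Control M01 were 5, 9 and 8, and again none passed. DESeq2 likewise called none of them, with 4, 4 and 3 at an unadjusted p under 0.05 over all libraries and 5, 9 and 8 without Control M01. The values below are therefore levels and differences that did not pass the test.

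**Figure D4:**
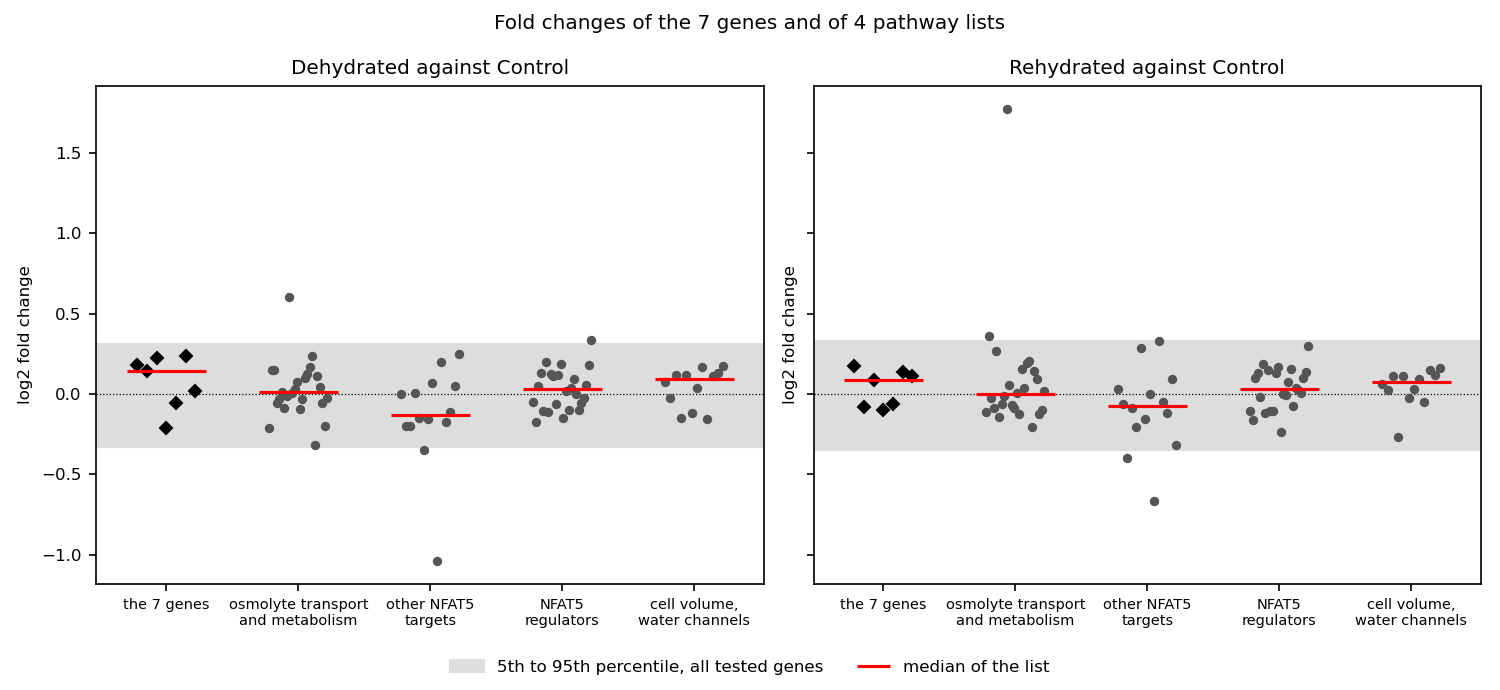
Log2 fold change of each tested gene against Control over all 29 libraries, for the 7 genes (black diamonds) and 4 pathway lists (grey points), with the list median in red and the 5th to 95th percentile of all tested genes as a grey band. Most points lie inside the band; the points farthest out are Fxyd2 at -1.04 in Dehydrated and Fmo1 at 1.77 in Rehydrated against Control.

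Of 28 genes of osmolyte transport and metabolism 24 were tested; 13 were higher and 11 lower in Dehydrated against Control, with a median log2 fold change of 0.01. Without Control M01 14 were higher and the median was 0.03. Rehydrated against Control had 12 higher and 12 lower, with a median of -0.002, and 11 higher with a median of -0.01 without Control M01. Slc38a3, a glutamine carrier of astrocytes also called SNAT3, averaged 46.6 ± 3.13 CPM in Dehydrated and 58.3 ± 12.2 CPM in Control libraries. Its log2 fold change was -0.32 (SE 0.10, unadjusted p = 0.00374, adjusted p = 0.497 by edgeR), and -0.29 (SE 0.10, adjusted p = 0.577) without Control M01. Isyna1, which makes myo-inositol from glucose phosphate, averaged 61.7 ± 5.65 CPM in Dehydrated and 55.4 ± 9.00 CPM in Control libraries, a log2 fold change of 0.15 (SE 0.08), and 0.17 (SE 0.08) without Control M01. Gatm, the first enzyme of creatine synthesis, had a log2 fold change of -0.20 (SE 0.13) in Dehydrated against Control and -0.23 (SE 0.13) without that library. Slc6a8, the creatine transporter, had -0.12 (SE 0.07) in Rehydrated against Control, with and without Control M01. Fmo1, which can oxidise hypotaurine to taurine, averaged 1.49 ± 1.85 CPM in Rehydrated and 0.427 ± 0.283 CPM in Control libraries, a log2 fold change of 1.77 (SE 0.59, unadjusted p = 0.00519, adjusted p = 0.553 by edgeR). It was 1.64 (SE 0.58, adjusted p = 0.513) without Control M01.

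Of 24 other reported NFAT5 targets 14 were tested, 4 had too few counts and 6 names were not matched, of which Cyr61 is the older symbol of Ccn1. In Dehydrated against Control 6 were higher and 8 lower, with a median of -0.13. Rehydrated against Control had 5 higher and 9 lower, with a median of -0.07. Without Control M01 both comparisons had 5 higher and 8 lower, and the medians were -0.07 and -0.02. Hsph1, a heat shock protein of the same HSP110 family as Hspa4l, averaged 431 ± 68.4 CPM in Dehydrated and 500 ± 127 CPM in Control libraries, a log2 fold change of -0.20 (SE 0.12), with and without Control M01. Car2, a carbonic anhydrase, had -0.17 (SE 0.10) in that comparison and -0.11 (SE 0.09) without Control M01. Fxyd2, a regulator of the sodium pump, was at 0.328 ± 0.265 CPM in Dehydrated and 0.767 ± 0.909 CPM in Control libraries, a log2 fold change of -1.04 (SE 0.59), and did not pass the filter on low counts without Control M01. Sgk1, a kinase of salt transport, had -0.40 in Rehydrated against Control with and without Control M01 (SE 0.25 and 0.27). Ccn1, a secreted matrix protein, had 0.33 (SE 0.21, unadjusted p = 0.124) in that comparison. Without Control M01 it had 0.50 (SE 0.20, unadjusted p = 0.0152, adjusted p = 0.535 by edgeR).

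Of 26 regulators of NFAT5 24 were tested, 14 higher and 10 lower in each of the comparisons with Control, with medians of 0.03. Without Control M01 the median was 0.0086 in Dehydrated, with 14 higher, and 0.04 in Rehydrated against Control, with 15 higher. Fyn, a kinase active in the hypertonic response, averaged 134 ± 7.71 CPM in Dehydrated and 145 ± 10.3 CPM in Control libraries. It also averaged 134 ± 8.79 CPM in Rehydrated libraries. Its log2 fold changes were -0.11 (SE 0.05, adjusted p = 0.72 by edgeR) and -0.12 (SE 0.05, adjusted p = 0.598), and both were -0.11 (SE 0.05) without Control M01. Csnk1a1, a casein kinase, had 0.12 (SE 0.06) in Dehydrated and 0.13 (SE 0.06) in Rehydrated against Control, and 0.08 and 0.09 (SE 0.05 for each) without Control M01. Rac1, a small GTPase, had -0.10 (SE 0.05) in Dehydrated against Control and -0.08 (SE 0.05) without Control M01. Dhx9, an RNA helicase known to bind NFAT5, averaged 424 ± 17.7 CPM in Rehydrated and 383 ± 52.2 CPM in Control libraries, a log2 fold change of 0.15 (SE 0.06, adjusted p = 0.598). Without Control M01 it was 0.10 (SE 0.04, adjusted p = 0.543).

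Of 16 genes of cell volume and water channels 12 were tested, and 8 were higher in Dehydrated against Control, with a median of 0.09. Without Control M01 6 were higher and the median was -0.004. In Rehydrated against Control 9 were higher, with a median of 0.08, and without Control M01 5 were higher, with a median of -0.01. Kcnk2, a mechanosensitive potassium channel, had 0.13 (SE 0.08) in Dehydrated and 0.12 (SE 0.08) in Rehydrated against Control. Without Control M01 it had 0.09 (SE 0.06) and 0.07 (SE 0.07). Clcn3, a chloride-proton exchanger, had 0.17 (SE 0.11) in Dehydrated against Control and 0.08 (SE 0.04) without Control M01. Aqp11, an aquaporin of internal membranes, had -0.27 (SE 0.15) in Rehydrated against Control and -0.18 (SE 0.15) without Control M01.

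How far the 7 genes varied together was described over the 28 libraries other than Control M01, with log2(CPM + 0.5) centred on the group means. These are descriptions across libraries that share tissue punches and depth, with no test. Of the 21 pairs the closest was the Slc5a3-locus gene with Hspa4l (Pearson r = 0.644, Spearman rho = 0.608, and r = 0.536 without the 2 libraries farthest from the median of Hspa4l). The most opposed was Slc6a6 with Hspa4l (r = -0.55, rho = -0.563). Nfat5 had r of 0.23 with Slc6a6, 0.18 with Slc38a2 and 0.18 with the Slc5a3-locus gene. With Control M01 included those 3 values were 0.854, 0.803 and 0.708.

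By the same measure the 3 genes most like each member were sought among 12272 named genes. For Nfat5 they were Tnrc6b (r = 0.832), Taok1 (0.815) and Son (0.814). For the Slc5a3-locus gene they were Prdm2 (0.851), Hycc2 (0.822) and Akap9 (0.77), and for Slc6a6 they included Trip6 (0.818) and Akap8 (0.747). For Slc6a12 they were Mvk (0.792), Gsn (0.721) and Ncln (0.715), and for Akr1b3 Gamt (0.696), Rpl39 (0.676) and Creg1 (0.654). For Slc38a2 they were Pphln1 (0.731), Osbpl11 (0.709) and Arhgap25 (0.694), and for Hspa4l Ptges3 (0.862), Znf770 (0.856) and Dstn (0.833). Spearman rho ran from 0.593 to 0.887 over all 21 pairs, and r without the 2 libraries farthest from the member's median from 0.499 to 0.819. Over all 29 libraries 6 of the 21 genes stayed among the first 3.

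**Figure D5:**
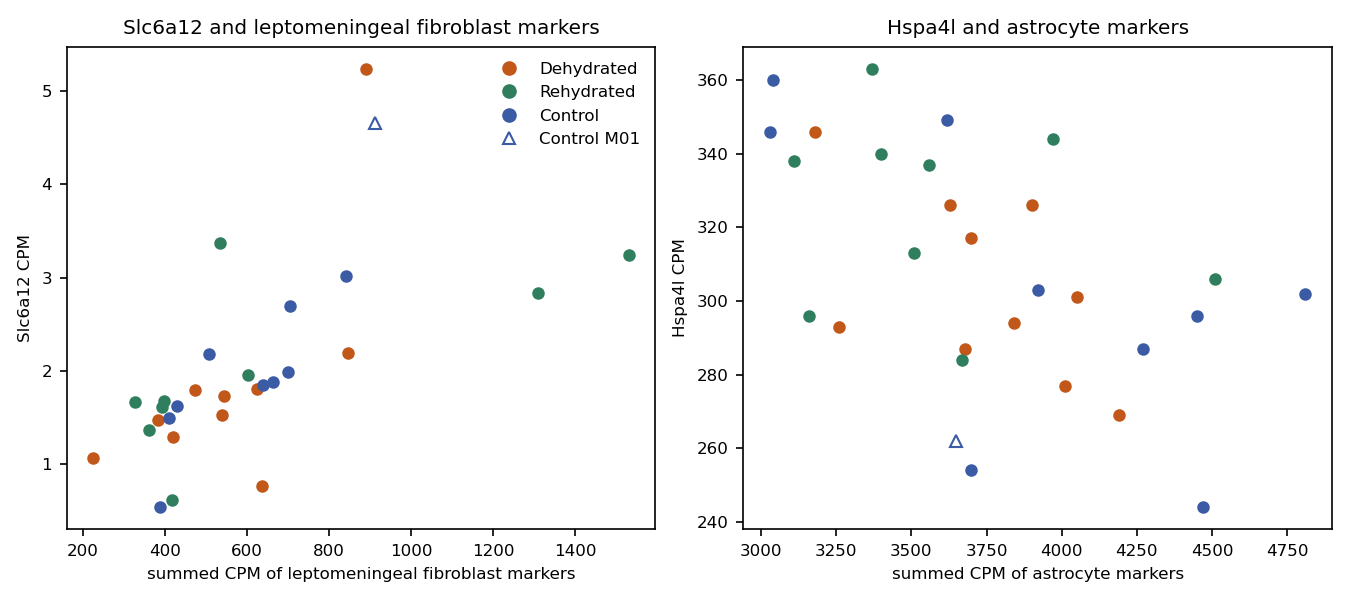
Left, Slc6a12 CPM against the summed CPM of leptomeningeal fibroblast markers; right, Hspa4l CPM against the summed CPM of astrocyte markers, with 1 point per library coloured by group and Control M01 as an open triangle. Libraries high in the fibroblast markers, such as Dehydrated M06 at 891 CPM, tend to be high in Slc6a12, and libraries high in the astrocyte markers tend to be low in Hspa4l.

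Marker lists of other cells in the punch moved with some of the 7 genes. Slc6a12 varied with 12 leptomeningeal fibroblast markers (r of their mean 0.604, rho 0.733, n = 28, and r = 0.59 without the 2 libraries farthest from its median), and 12 of the 12 markers had a positive r with it. The summed level of those markers was 225 to 891 CPM in Dehydrated, 327 to 1530 CPM in Rehydrated and 387 to 911 CPM in Control libraries, with none of them at 0 in a whole group. Dehydrated M06, which had the highest Slc6a12, was the Dehydrated library with the highest sum. Hspa4l varied against the astrocyte markers (r = -0.616, rho = -0.586, and r = -0.601 without the 2 farthest libraries), and so did the Slc5a3-locus gene (r = -0.50, rho = -0.506). For each of these 2 genes 1 of the 12 markers had a positive r. Their r was also negative with microglia (-0.394 and -0.389), mural (-0.279 and -0.28) and leptomeningeal fibroblast markers (-0.216 and -0.32). It was positive only with oligodendrocyte (0.085 and 0.142) and blood markers (0.215 and 0.12), and for the locus gene with magnocellular markers (0.203). Slc6a6 varied with the astrocyte markers (r = 0.438, rho = 0.529, 9 of 12 markers with a positive r) and with those of oligodendrocyte precursors (r = 0.539, rho = 0.523). This was not particular to those cells. Its r was 0.461 with microglia, 0.417 with oligodendrocyte, 0.396 with endothelial, 0.387 with mural and 0.371 with leptomeningeal fibroblast markers. With the magnocellular, blood and ependymal and choroid plexus lists it was 0.081, -0.068 and -0.246. Summed astrocyte markers were 3180 to 4190 CPM in Dehydrated, 3110 to 4510 CPM in Rehydrated and 3030 to 4810 CPM in Control libraries. Of the 12 astrocyte markers none passed the test in Dehydrated or Rehydrated against Control by edgeR (1 in each at an unadjusted p under 0.05, and 2 and 1 without Control M01), nor by DESeq2. The part of these cells in the values of the 7 genes was not tested.

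Over all 10 marker lists, 3 of 10 tested magnocellular neuron genes and 1 of 6 ependymal and choroid plexus genes were called higher in Dehydrated against Control by edgeR, and without Control M01 the numbers were 2 and 0. No gene of the other 8 lists was called in any of the 3 comparisons by edgeR; DESeq2 called 1 oligodendrocyte precursor gene in Dehydrated against Control. The 3 called magnocellular genes were Avp, Caprin2 and Pdyn. Of the 10 genes 4 were lower in Dehydrated against Control, Oxt, Otp, Pou3f2 and Sim2, and 3 were lower without Control M01. Summed magnocellular markers were 3830 to 9260 CPM in Dehydrated, 1640 to 6980 CPM in Rehydrated and 2110 to 5070 CPM in Control libraries. Avp made up much of this sum, with a mean of 3290 CPM in Dehydrated and 934 CPM in Control libraries. The r of the 7 genes with the mean of the magnocellular list ran from -0.067 for Slc6a12 to 0.224 for Nfat5 (0.46 for Nfat5 without the 2 libraries farthest from its median). List medians of the log2 fold change in Dehydrated against Control ran from -1.47 for 3 blood genes to 0.13 for the magnocellular list. Without Control M01 they ran from -1.39 for the blood genes to 0.08 for the ependymal and choroid plexus list, with 0.07 for the magnocellular list. Summed blood markers were 31.8 to 188 CPM in Dehydrated, 34.3 to 992 CPM in Rehydrated and 114 to 807 CPM in Control libraries.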

How the data were processed

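Counts of 29 RNA-seq libraries were analysed. The authors made the deposited counts, whole numbers of fragments per gene, with featureCounts 1.6.2 (paired ends, no strand option, Ensembl genes of mJacJac1), per the file headers, so reads of overlapping and antisense genes are not separable. The submitters' processing notes also list FastQC and DESeq2, and no aligner is named (not given in the sources used here). For each treatment against Control, the authors' deposited tables give a log2 fold change, its SE, a p-value and an adjusted p-value; their 56 columns per library were not used here.

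Gene names came from the authors' tables or, failing that, from RefSeq genes of this assembly that share at least 0.5 of both spans. No sequences were used here. In edgeR 4.0.16 (R 4.3.3), filterByExpr kept 17558 of 29170 genes and dropped 0.126% of counts. After TMM scaling, the robust quasi-likelihood fit had terms for group and sex label and 25 residual degrees of freedom. Adjustment was by Benjamini-Hochberg with a threshold of 0.05. The method was tested on simulated data, with changes larger than those estimated for the 7 genes between groups. That test does not show how well changes of their size would be found. CPM used TMM-scaled totals; SE is the absolute log2 fold change over the square root of F, and intervals cover 95%. Named genes were the 7 genes, per pathway list the 3 with the smallest unadjusted p in each comparison with Control plus any called, and the 3 of most similar pattern whose mean log2 CPM reached 1; the results of 2 genes that this rule picks are not reported here, and counts, medians and ranges include them.

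Members and lists were chosen with earlier results of these data known. Alternatives were DESeq2 1.42.0 (with and without Control M01), other size factors, filters, covariates and subsets, and leaving out each library. Samples were grouped by their labels. For Control F03, Control M05 and Dehydrated M02 the sex label disagrees with the letter in the name, and the label was used. No 2 libraries of a group agreed within sampling noise (126 pairs, chi-square over degrees of freedom 8.52 to 152). Libraries that share a name across groups did not deviate together: correlations ran from -0.132 to 0.116. Other software was Python 3.11.15 with numpy 2.4.6, pandas 2.3.3, scipy 1.17.1 and matplotlib 3.10.9.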

Additional observations from a re-analysis of the deposited data

Results flagged for a closer look

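Within groups of 9 or 10 libraries, 5 of 21 sets of values had a library whose gap to the next was a large part of the range by Dixon's 95% value; chance flags about 1 in 20 sets. Control M01 was such a library for 3 genes: Nfat5 at 3.14 CPM with the next at 28.6, Slc6a6 at 15.6 CPM with the next at 50.6, and Slc38a2 at 38.5 CPM with the next at 72.1. Dehydrated M06 was so for Slc6a12, at 5.24 CPM with the next at 2.19. Rehydrated F05 was so for Akr1b3, at 65.6 CPM with the next at 51.1.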

How the results depend on the processing

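None of the 7 genes passed under any of the 40 alternatives per comparison, a threshold of 0.1 on the adjusted p included. Over the alternatives their lowest adjusted p was 0.614 in Dehydrated against Control (Slc38a2), 0.585 in Rehydrated against Control (Slc6a6) and 0.694 in Rehydrated against Dehydrated (the Slc5a3-locus gene). The direction of uncalled log2 fold changes turned in 47 of 819 alternative values; the cause was not tested. In Dehydrated against Control, libraries of female label alone gave -0.0223 for Nfat5 and 0.0613 for Akr1b3, those of male label alone 0.375 for Slc6a12, DESeq2 without Control M01 0.0193 for Akr1b3 and -0.00105 for Hspa4l, and the replicate block -0.0355 for Hspa4l. In Rehydrated against Control, libraries of female label alone gave -0.0807 for Nfat5, 0.00935 for the Slc5a3-locus gene, -0.284 for Slc6a6, 0.0653 for Akr1b3 and -0.0225 for Slc38a2, and DESeq2 without Control M01 -0.0363 for Slc6a6, 0.0931 for Slc6a12 and 0.0214 for Akr1b3. In Rehydrated against Dehydrated, the replicate block gave 0.0925 for Nfat5, libraries of male label alone 0.00301 for Slc6a6, -0.399 for Slc6a12 and 0.005 for Akr1b3, and for Akr1b3 DESeq2 without Control M01 gave 0.00207, the 2 groups alone 0.00633 and libraries of female label alone 0.00403. Leaving out 1 library in turn, the log2 fold change in Dehydrated against Control ran from -0.095 to 0.0205 for Akr1b3 and from -0.0128 to 0.0501 for Hspa4l. In Rehydrated against Control it ran from -0.174 to 0.0046 for the Slc5a3-locus gene, -0.0367 to 0.138 for Slc6a6, -0.259 to 0.0937 for Slc6a12 and -0.125 to 0.0203 for Akr1b3, and in Rehydrated against Dehydrated from -0.0394 to 0.0308 for Nfat5, -0.0408 to 0.434 for Slc6a12 and -0.0758 to 0.0296 for Akr1b3.

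Counts of genes called moved more. In Dehydrated against Control, 22 by edgeR, they were 39 by DESeq2, 40 by DESeq2 without Control M01, 11 with the 2 groups alone and 0 within either sex label, and 10 (without Dehydrated M06) to 27 (without Dehydrated F07) with 1 library left out. In Rehydrated against Control, 0 by edgeR, they were 18 by DESeq2, 3 by DESeq2 without Control M01, 2 in libraries of female label, and 0 to 2 with 1 library left out. In Rehydrated against Dehydrated, 4 by edgeR, they were 13 by DESeq2, 16 by DESeq2 without Control M01, 7 with the replicate block, 1 with the 2 groups alone, 0 and 1 in libraries of female and male label, and 2 to 9 with 1 library left out. DESeq2 called 2 genes for the sex difference in Dehydrated. With the replicate block 15 genes were called in Dehydrated against Control; the shared names are only names, since libraries that share one did not deviate together. Depth limits Slc6a12, with 9 to 80 counts per library. Over all 29 libraries 15 of the 21 genes of most similar pattern fell out of the first 3.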
